A study of Mus musculus with 14 samples.

Results

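The RasGRP and Spred genes act at opposite ends of the control of Ras, and 7 of them were followed here in olfactory epithelium of newborn mice: Rasgrp1, Rasgrp2, Rasgrp3, Rasgrp4, Spred1, Spred2 and Spred3. They were picked by symbol out of the 51211 gene symbols in each table of normalized counts, and all 7 were present in both tables. The choice rested on the Kir2.1 mice, in which Rasgrp4 was far below and Spred1 far above the controls, and the other 5 genes were taken as their paralogs. The values of the 7 genes in the Kir2.1 mice are therefore given as a description, without a test.

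RNA was measured in the olfactory epithelia of 14 mice at postnatal day 5, in 2 experiments of separate mice. In the first, 3 Kir2.1 mice carried OMP-IRES-tTA together with tetO-Kir2.1-IRES-tauLacZ, and 3 controls were heterozygous for OMP-IRES-tTA alone. Both groups thus carried the tTA allele, a transactivator placed at the Omp locus and made by mature olfactory sensory neurons (OSNs), and Kir2.1 is an inward rectifier potassium channel that lowers the excitability of the cells that make it. The labels carry the term Kir2.1-off for these mice, but they were taken at day 5, and the name Kir2.1 mice is used for them here. In the second experiment, 4 wild type mice were exposed to the odor phenylethylamine (PEA) from day 0 to day 5, and 4 wild type mice were not exposed. The labels give C57BL/6 as the strain of every mouse, while the methods of the study name CD-1 pups for the odor exposure. The experiments ask how silencing the OSNs and prolonged odor exposure change gene expression in the early postnatal epithelium. As the tissue holds many cell types, fewer cells of a type and less RNA per cell cannot be told apart.

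Ras and Rap are small GTPases that are on when bound to GTP. RasGRP proteins are exchange factors that load GTP onto them, and most of them answer to diacylglycerol, a lipid made by phospholipase C, through a zinc-binding C1 domain. The C1 domain of Rasgrp2 binds diacylglycerol poorly, and that protein answers mainly to calcium. Rasgrp1 is best known from T cells, Rasgrp2 from platelets, where it acts on Rap1, Rasgrp3 from B cells and endothelium, and Rasgrp4 from mast cells. Spred proteins sit at the membrane and restrain the step from Ras to the ERK kinases, and Spred1 does so by bringing in neurofibromin, the product of Nf1, which turns Ras off.

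The stretch that codes for the C1 domain is shown for the 4 RasGRP genes because this domain is the site for diacylglycerol in the family, with Rasgrp2 as the exception, and because it lets the paralogs be compared base by base. Each sequence is 150 bases of the coding strand from GENCODE vM21 on GRCm38, with the codons of the zinc-binding histidines and cysteines in capitals. From first to last base, introns included, the stretch spans chr2:117286172-117287883 on the minus strand for Rasgrp1 and chr19:6413167-6413917 on the plus strand for Rasgrp2. It spans chr17:75516418-75524518 on the plus strand for Rasgrp3 and chr7:29149072-29149974 on the plus strand for Rasgrp4.
Rasgrp1: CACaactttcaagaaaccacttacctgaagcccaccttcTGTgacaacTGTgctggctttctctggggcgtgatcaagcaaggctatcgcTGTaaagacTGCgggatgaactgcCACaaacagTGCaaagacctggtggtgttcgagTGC
Rasgrp2: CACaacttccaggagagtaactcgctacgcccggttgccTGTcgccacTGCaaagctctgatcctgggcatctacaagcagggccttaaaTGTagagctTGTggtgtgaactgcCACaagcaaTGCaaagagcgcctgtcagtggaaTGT
Rasgrp3: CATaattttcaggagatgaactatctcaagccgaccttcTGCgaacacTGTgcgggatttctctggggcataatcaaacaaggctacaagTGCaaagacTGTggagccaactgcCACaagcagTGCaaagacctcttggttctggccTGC
Rasgrp4: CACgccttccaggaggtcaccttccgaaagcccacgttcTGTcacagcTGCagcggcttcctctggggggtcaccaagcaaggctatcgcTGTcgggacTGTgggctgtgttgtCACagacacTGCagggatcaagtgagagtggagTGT

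The stretch of Rasgrp4 was identical to that of Rasgrp1 at 70.7% of its bases and to those of Rasgrp2 and Rasgrp3 at 58.7% each. Rasgrp1 and Rasgrp3 were the closest pair, at 75.3%. The annotation also holds a longer Rasgrp4 form, in 2 of 9 coding transcripts compared, with 15 bases more in the C1 stretch at chr7:29149132-29149146 on the plus strand. It is shown with the added bases in capitals, since they fall inside the C1 domain.
Rasgrp4, longer form: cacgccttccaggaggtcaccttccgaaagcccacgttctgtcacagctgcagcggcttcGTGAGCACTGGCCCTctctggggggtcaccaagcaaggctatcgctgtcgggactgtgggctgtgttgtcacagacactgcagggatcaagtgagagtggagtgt

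The values are per gene, so these forms were not separated. The longest run of bases that Rasgrp4 shares with another member was 25 bases, with Rasgrp1 (tactgggtgtgcacctcaaggacct), and the longest that Spred1 shares with Spred2 was 17 bases (atgaccagagatgactc). Both are shorter than the 40-base reads of the Kir2.1 experiment and than the 150-base reads of the PEA experiment, so no read could match both paralogs over its whole length. The last exons of Rasgrp4 are another matter. They overlap the end of Fam98c, a gene read from the opposite strand, by 978 exonic bases, and 16.2% of the 31-base words in Rasgrp4 transcripts occur in transcripts of other genes on the opposite strand. Reads from that overlap can be told apart only where strand is used. The methods call the Kir2.1 libraries unstranded and the PEA libraries stranded.

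Per kilobase of exon, the order of the 7 genes in the controls of the Kir2.1 experiment was Spred2 at 254 ± 15.2, Spred1 at 195 ± 8.47, Rasgrp4 at 142 ± 7.23, Rasgrp1 at 27.0 ± 3.31, Spred3 at 26.7 ± 6.49, Rasgrp3 at 7.29 ± 2.60 and Rasgrp2 at 4.59 ± 0.866 normalized counts per kb (mean ± SD, n = 3). The first 3 genes were separated by more than their spread, whereas Rasgrp1 and Spred3 overlapped, as did Rasgrp3 and Rasgrp2. In the PEA controls the order was Spred1 at 152 ± 24.4, Spred2 at 22.1 ± 2.98, Rasgrp1 at 19.4 ± 3.97, Rasgrp3 at 7.43 ± 2.09, Spred3 at 5.81 ± 1.43, Rasgrp4 at 2.74 ± 1.53 and Rasgrp2 at 1.06 ± 0.397 (n = 4). Spred1 stood alone at the top there, and Spred2 and Rasgrp1 lay within each other's spread. Kilobases are counted over the exons of all annotated transcripts of a gene, which for Rasgrp2 come to 12384 bases and lower its value.

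Rasgrp4 was thus the main RasGRP gene in the controls of one experiment and among the lowest in those of the other. As a share of the summed values of each table, it came to 26.9 of every 1000000 in the Kir2.1 controls and to 1.46 in the PEA controls. Spred1 went the other way, with 39.4 and 85.9, and Spred2 lay on the same side as Rasgrp4, with 34.9 and 8.51. The tables were normalized separately, the first from poly-A selected and the second from ribosomal-RNA-depleted libraries, so that library type, strain and experiment cannot be told apart. No test was made between the experiments.

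Rasgrp4 was much lower in the Kir2.1 mice. Its normalized count was 892, 957 and 868 in control mice 1, 2 and 3, and 222, 291 and 246 in Kir2.1 mice 1, 2 and 3. Every Kir2.1 mouse lay far below the lowest control, and the spread within each group was small beside the gap. The means were 906 ± 46.0 and 253 ± 35.1 (SD, n = 3 per group), a ratio of 0.279 and a difference of -1.84 on the log2(normalized count + 1) scale (SE 0.12). Ordered from the most lowered gene, Rasgrp4 (ENSMUSG00000030589, chr7:29134851-29153961, plus strand) took place 109 of 19807 genes with a mean of at least 10.

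Spred1, the inhibitor that works with neurofibromin, differed in the opposite direction. It was at 1389, 1283 and 1297 in the controls and at 2432, 2593 and 2604 in the Kir2.1 mice. All Kir2.1 mice were above all controls, and the 3 values in each group lay close together. The means were 1323 ± 57.5 and 2543 ± 96.1, a ratio of 1.92 and a log2 difference of 0.94 (SE 0.07), place 375 from the top of the 19807 genes. Spred1 (ENSMUSG00000027351) lies at chr2:117121374-117182279 on the plus strand.

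Rasgrp1 was also higher in each Kir2.1 mouse than in any control, but by a smaller step. The controls had 132, 169 and 152 and the Kir2.1 mice 194, 249.8 and 196. The lowest Kir2.1 mouse was not far above the highest control. The log2 difference was 0.49 (SE 0.16; means 151 ± 18.6 and 213 ± 31.5). With these, 3 of the 7 genes had groups that did not overlap, against 16.3% of all genes tested (7.26% with Kir2.1 mice higher, as for 2 of the 7, and 9.04% with Kir2.1 mice lower, as for 1), a count on which the choice of genes rested in part.

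The remaining 4 paralogs had overlapping groups. Spred2 was at 1124, 1145 and 1255 in the controls and at 1168, 1117 and 1120.2 in the silenced mice, a difference of -0.05 (SE 0.08) in log2. Although Spred2 had the highest control level per kb of the 7 genes, the Kir2.1 values all lay within or just under the range of the controls. Spred3 had 189.5, 189 and 119 against 128, 202 and 153 (log2 difference -0.04, SE 0.25). Rasgrp2 had 61.2, 44.7 and 64.8 against 47.8, 80.7 and 56.5, and Rasgrp3 had 26.5, 56.8 and 44.3 against 45.6, 27.7 and 34.5. Their log2 differences were 0.10 (SE 0.27) and -0.20 (SE 0.35), and mice of both groups were interspersed.

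**Figure D1:**
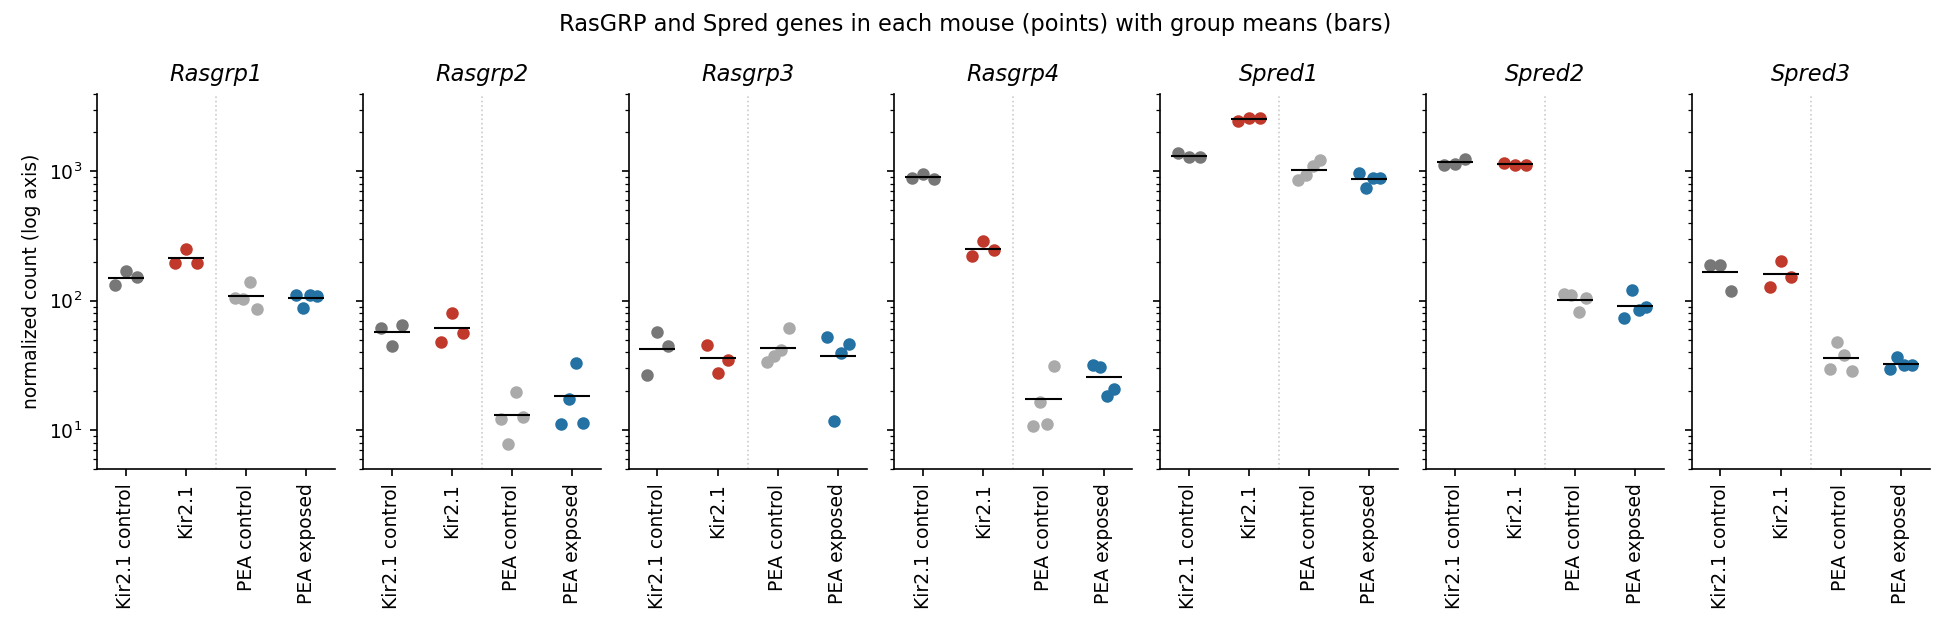
Normalized count (log axis) of each of the 7 genes in every mouse of both experiments, with 1 point per mouse, groups marked by color and horizontal bars at the group means. The Kir2.1 mice lie below all controls for Rasgrp4 and above them for Spred1 and Rasgrp1, and exposed and control mice of the PEA experiment overlap for all 7 genes.

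The make-up of both families differed accordingly. Taken per kb of exon, Rasgrp4 held 80.9%, 77.6% and 77.3% of the summed RasGRP level in the 3 controls and 42.9%, 45.0% and 46.0% in the 3 Kir2.1 mice. The share of Rasgrp1 went from between 13.6% and 15.6% to between 41.6% and 43.9%, which placed it level with Rasgrp4. Rasgrp1 itself had a mean of 27.0 per kb in controls and 38.1 in Kir2.1 mice, and Rasgrp4 142 and 39.8. Much of the move in shares thus follows from Rasgrp4 in the sum, a gene chosen for its fall in these mice. The RasGRP sum itself was 173 to 194 normalized counts per kb in controls and 81.3 to 102 in Kir2.1 mice. Among the Spred genes, Spred1 made up 42.8%, 40.5% and 39.7% in controls and 56.7%, 58.2% and 59.0% in Kir2.1 mice, where it passed Spred2. The Spred sum was 467 to 482 per kb in controls and 632 to 656 in Kir2.1 mice. In the PEA experiment, where Rasgrp4 was low, Rasgrp1 held 48.6% to 70.5% of the RasGRP sum and Spred1 77.5% to 87.5% of the Spred sum.

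**Figure D2:**
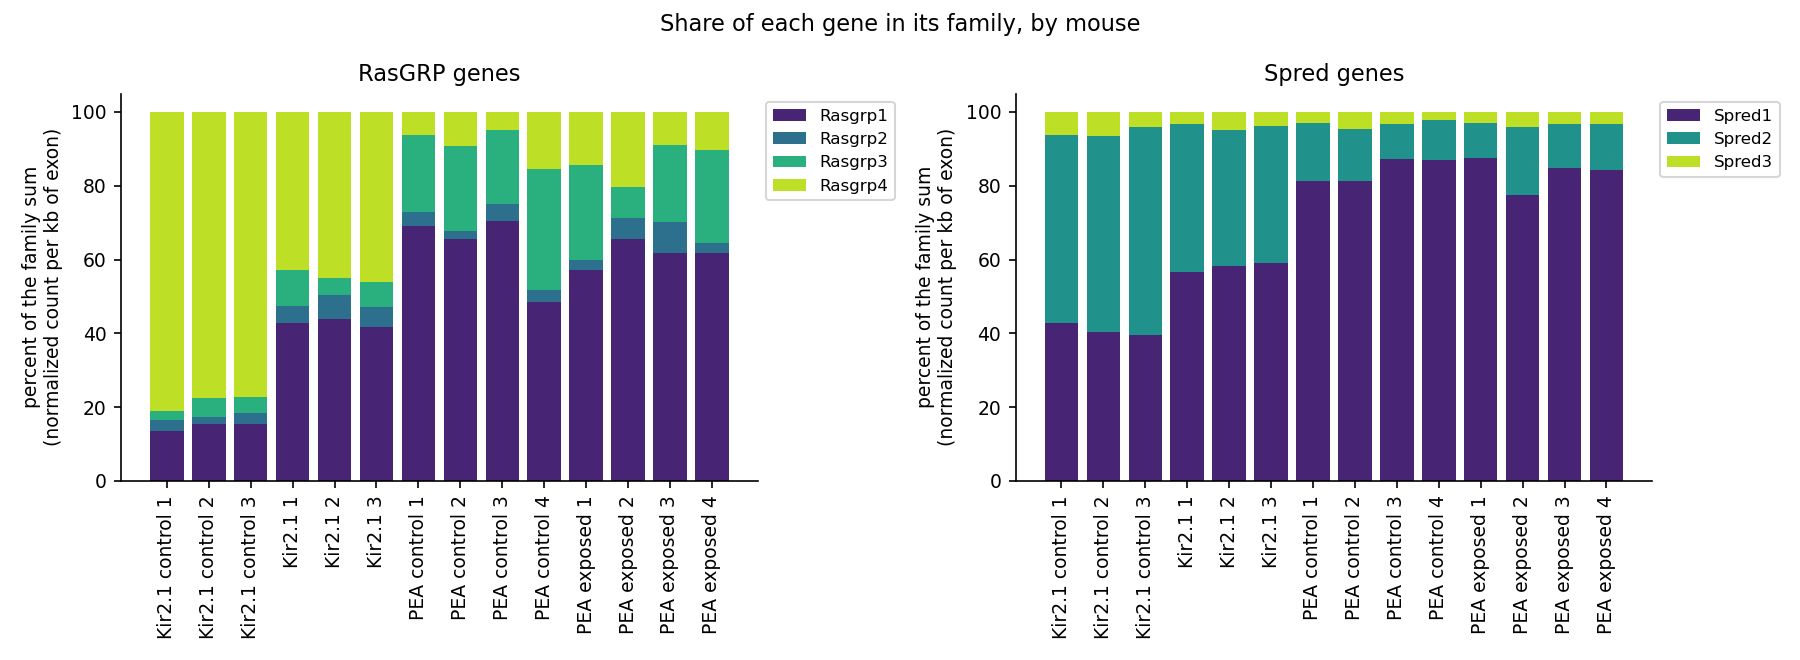
Share of each gene in the sum of its family, in percent of normalized counts per kb of exon, with 1 bar per mouse. In the RasGRP panel Rasgrp4 fills 77.3% to 80.9% of the bars of the Kir2.1 controls and 42.9% to 46.0% of those of the Kir2.1 mice, and in the Spred panel Spred1 goes from 39.7% to 42.8% in controls to 56.7% to 59.0% in Kir2.1 mice.

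The transgene and the driver locus were measured in the same mice. Differences of genes outside the 7 were tested with limma, and p-values were adjusted over all genes by Benjamini-Hochberg. Kcnj2, which codes for Kir2.1, ranged from 986 to 1274 in controls and from 17926 to 24193 in Kir2.1 mice (log2 difference 4.18, SE 0.14, limma adjusted p = 0.000157). Omp, the marker of mature OSNs, was at 33338 ± 2501 in controls and 22010 ± 1319 in Kir2.1 mice (log2 difference -0.60, SE 0.08, limma adjusted p = 0.0466). All 10 markers of mature OSNs were lower at an unadjusted limma p under 0.05, 1 of them (Omp) past the adjusted threshold, with a median log2 difference of -0.40 and a summed level of 133835 to 148726 in controls and 98674 to 111379 in Kir2.1 mice. The difference of Rasgrp4 was larger than that of any gene of this list, but Rasgrp4 was chosen for its fall in these same mice. Per 1000 normalized counts of Omp, it came to 27.9, 30.1 and 24.0 in the controls and to 10.5, 13.6 and 10.5 in the Kir2.1 mice. When the mean of these markers was subtracted in each mouse, the difference was -1.42 for Rasgrp4 and 1.36 for Spred1, on a scale whose median over all genes was 0.43. The part of a loss of mature OSNs in the values of both genes was not tested.

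Markers of the cells in which RasGRP genes are best known were read beside them. Of 11 mast cell markers, only Kit and Hdc reached a mean of 10, and both are also made by other cells. In controls Kit was at 2536 ± 854, Hdc at 2172 ± 133 and Rasgrp4 at 868 to 957. The other 9 markers, singled out after their values were seen, summed to between 17.9 and 41.6 over the 6 mice. No single value of these was above 12.1 (Cpa3), and Mrgprb2 was at 0 in every mouse. The part of mast cells in the Rasgrp4 values was not tested. The 7 T cell markers summed to 99.8, 84.5 and 139 in the controls and to 249.98, 141 and 174 in the Kir2.1 mice. The lowest Kir2.1 sum was thus just above the highest control sum, and Cd4 alone was at 123 in Kir2.1 mouse 1. The 4 of them with a mean of at least 10 over the 6 mice were higher in Kir2.1 mice with overlapping groups, and none passed the adjusted threshold. The first of the list, Cd3d, was at 3.34 ± 2.69 in controls and 18.3 ± 19.9 in Kir2.1 mice. It reached that mean only through the Kir2.1 mice, with 41.2 in mouse 3, so its place among the 4 follows from the filter. Means of Cd3e (3.56 and 2.16), Cd3g (4.64 and 4.36) and Cd8a (0.661 and 0.317), which fell below the filter, were lower in Kir2.1 mice. The part of T cells in the Rasgrp1 values was not tested. Sums of B cell markers (63.7 to 136 and 80.8 to 164), endothelial markers (1289 to 1524 and 1311 to 2195) and platelet markers (1096 to 1234 and 1126 to 1227) overlapped between controls and Kir2.1 mice. Of the 7 endothelial markers, Kdr (log2 difference 0.41) and Tek (0.59) were above all controls in every Kir2.1 mouse, as 7.26% of all genes were. Their adjusted p were 0.483 and 0.381 by limma. The median of the list was 0.25, and Emcn (-0.03) and Esam (-0.26) were on the other side of 0.

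The labels name olfactory epithelium, and the first marker of each of its main cell types was abundant. In the Kir2.1 controls Gap43 of immature OSNs was at 8159 ± 642, Krt5 of basal cells at 2435 ± 553 and Cyp2g1 of sustentacular cells at 90320 ± 14865, and their groups overlapped between controls and Kir2.1 mice. Among markers of blood and vessel cells, S100a8 at 337 ± 117, Pf4 at 93.4 ± 12.7 and Pecam1 at 339 ± 21.2 in these controls. Pf4, a platelet gene, was at 138 ± 21.1 in Kir2.1 mice with groups that did not overlap (log2 difference 0.56, limma adjusted p = 0.332), while Rasgrp2 overlapped. Of 3 platelet markers tested, Pf4 was the only 1 with such groups, which 16.3% of all genes had. Itga2b of the same list was at 1015 and 967, with overlapping groups.

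One library stood apart. Control mouse 1 of the Kir2.1 experiment had a mean log2 value of 6.06 over 92 vomeronasal receptor genes, against 2.42 to 2.51 in the other 5 mice. Trpc2, a channel of vomeronasal neurons, was at 395 ± 124 in controls and 174 ± 44.3 in Kir2.1 mice (limma adjusted p = 0.173). Its values were 528, 376 and 283 in control mice 1, 2 and 3 and 225, 145 and 152 in the Kir2.1 mice. Control mice 2 and 3 thus also lay above all Kir2.1 mice. It was the only 1 of 5 vomeronasal neuron markers with groups that did not overlap. Without control mouse 1, the log2 difference was -1.85 for Rasgrp4, 0.98 for Spred1 and 0.40 for Rasgrp1. Over the removal of each mouse in turn, Rasgrp4 stayed between -1.95 and -1.75, Spred1 between 0.92 and 0.98 and Rasgrp1 between 0.37 and 0.58. In the PEA experiment these receptor genes ranged from 1.44 to 5.76 among controls and from 1.43 to 5.32 among exposed mice.

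The PEA experiment used none of the mice on which the choice of genes rested, and there the 7 genes were tested. None reached a limma adjusted p of 0.05 over 17322 genes, of which 0.179% did, and at an unadjusted p under 0.05, found for 15% of all genes, the count was also 0. Exposed and control mice overlapped for each of the 7 genes, while 9.32% of all genes had groups that did not. The exact permutation test over the 70 splits of the 8 mice could have gone down to p = 0.0286.

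Rasgrp4 was at 10.8, 16.4, 11.0 and 31.5 in the 4 controls and at 31.96, 30.99, 18.3 and 20.7 in the 4 exposed mice. The control with the highest value reached the level of the highest exposed mice. The means were 17.4 ± 9.71 and 25.5 ± 6.99 (SD, n = 4 per group), a log2 difference of 0.61 (SE 0.38) with a 95% interval from -0.22 to 1.45 (adjusted p = 0.475 by limma, exact two-sided permutation p = 0.143). At these low values the interval leaves room for more than a doubling as well as for a small loss. The Kir2.1 difference, by which Rasgrp4 was chosen, came from another library type and gives no yardstick here.

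Spred1 was at 864, 931, 1099.5 and 1229 in the controls and at 975, 748, 886 and 891 in the exposed mice. The exposed mice sat in the lower part of the range of the controls, apart from 1 mouse below it. The log2 difference was -0.23 (SE 0.13; 95% interval -0.52 to 0.07; adjusted p = 0.451 by limma, exact permutation p = 0.2), on means of 1031 ± 165 and 875 ± 94.3. The Kir2.1 difference of Spred1 rested on the same choice and was not tested against this one. Spred2 had 112, 110.1, 82.0 and 104 against 73.1, 121, 84.4 and 88.9, a log2 difference of -0.17 (95% interval -0.58 to 0.25, limma adjusted p = 0.720). For Spred3 the values were 29.7, 47.8, 38.3 and 28.7 against 29.8, 36.5, 32.0 and 32.1, a log2 difference of -0.12 (95% interval -0.62 to 0.38, limma adjusted p = 0.847).

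Of the other RasGRP genes, Rasgrp1 had 106, 103, 139.7 and 86.9 in controls and 111, 88.1, 111 and 109 in exposed mice. Its log2 difference was -0.04 (95% interval -0.42 to 0.35, limma adjusted p = 0.940). This was not tested against the 0.49 seen in the Kir2.1 mice, which came from another library type. Rasgrp2 had 12.1, 7.85, 19.7 and 12.7 against 11.1, 17.4, 32.9 and 11.4, and Rasgrp3 had 33.4, 37.6, 41.4 and 61.0 against 52.2, 11.8, 39.3 and 46.0. Single mice set their spread, 1 exposed mouse being high for Rasgrp2 and 1 low for Rasgrp3. The log2 differences were 0.38 (95% interval -0.55 to 1.31, limma adjusted p = 0.713) and -0.36 (95% interval -1.30 to 0.59, limma adjusted p = 0.732). The 10 mature OSN markers, read beside them, had a median log2 difference of -0.03 and overlapping sums (33073 to 37275 in controls and 31799 to 38000 in exposed mice). Omp was at 6817 ± 547 and 8460 ± 1146, above all controls in all 4 exposed mice (log2 difference 0.31, limma adjusted p = 0.252). Gnal, the G protein of odor transduction, had a difference of the opposite sign (-0.37, limma adjusted p = 0.165). Cnga2, a subunit of the transduction channel, was below all controls in all 4 exposed mice (log2 difference -0.18, limma adjusted p = 0.335). Of the 10 markers, 1 higher and 1 lower thus had groups that did not overlap, which 9.32% of all genes had.

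**Figure D3:**
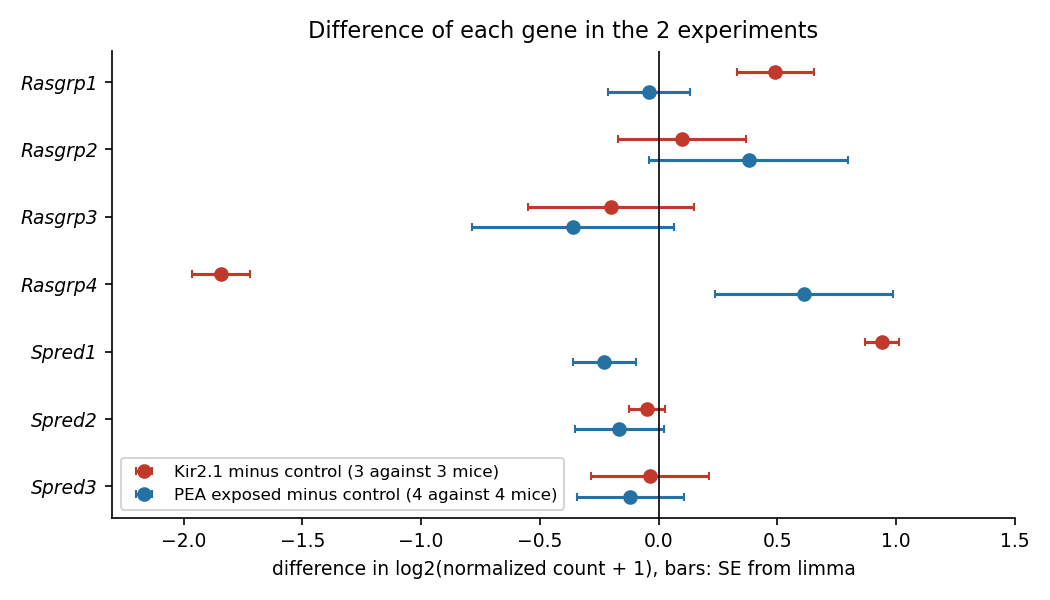
Difference of each gene between treated and control mice on the log2(normalized count + 1) scale, with bars for the SE from limma (3 against 3 mice for Kir2.1, 4 against 4 for PEA). Rasgrp4 at -1.84 and Spred1 at 0.94 stand off from 0 in the Kir2.1 mice, while in the PEA experiment they are at 0.61 and -0.23.

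A RasGRP and a Spred gene lie near each other with a Fam98 gene between them at 2 places in the genome, and Rasgrp3 has a Fam98 gene but no Spred gene beside it. On chromosome 2 Spred1 and Rasgrp1 are 97713 bases apart, and Fam98b (chr2:117249739-117271540, plus strand) is the only protein-coding gene between them. On chromosome 7 Rasgrp4 and Spred3 are 4867 bases apart with Fam98c (chr7:29152510-29156234, minus strand) between, and on chromosome 17 Rasgrp3 is followed by Fam98a at 8031 bases. The FAM98 proteins are known as partners in RNA-processing complexes. Fam98b, flanked by both genes that were higher in the Kir2.1 mice, had 2039, 1981 and 2018 in controls and 2499, 2751 and 3006 in Kir2.1 mice. Its groups did not overlap, and its log2 difference of 0.45 (SE 0.08) missed the threshold (limma adjusted p = 0.103).

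Fam98c, which shares exonic bases with Rasgrp4, did not follow it. It was at 836 ± 52.8 in controls and 763 ± 117 in Kir2.1 mice (log2 difference -0.14, SE 0.13, limma adjusted p = 0.771), and the groups overlapped. In the PEA experiment Fam98c was at 61.0 to 83.3 in controls and 121 to 162 in exposed mice (log2 difference 0.87, SE 0.16, limma adjusted p = 0.0685), with groups that did not overlap, and the difference of Rasgrp4 had the same sign, with groups that did overlap. The PEA libraries are described as stranded, so that strand could be used there. The part of the shared exonic bases in the PEA value of Rasgrp4 was not tested. Fam98b was at 170 ± 34.7 and 119 ± 10.2 there (log2 difference -0.49, limma adjusted p = 0.231), and Fam98a had differences of 0.02 and -0.02 in the Kir2.1 and PEA experiments (adjusted p = 0.953 and 0.938 by limma).

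**Figure D4:**
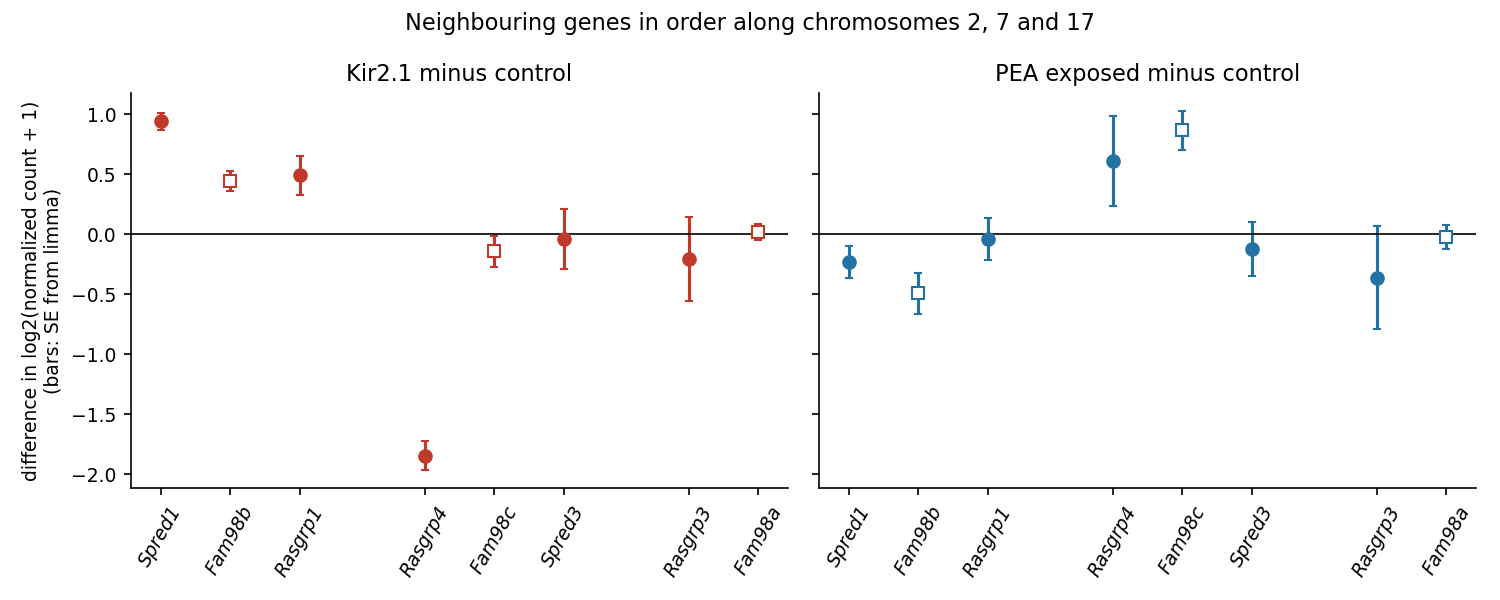
Log2 difference, with SE from limma, of the RasGRP, Spred and Fam98 genes in their order along chromosomes 2, 7 and 17, for both experiments, with open squares for the Fam98 genes. Spred1, Fam98b and Rasgrp1 are all above 0 in the Kir2.1 mice, whereas Fam98c and Spred3 stay near 0 beside Rasgrp4 at -1.84.

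The genes most like Rasgrp4 over the 6 mice of the Kir2.1 experiment, by root mean square distance of their centred log2 values, were Kirrel2 (0.0920), S100a5 (0.110), Kcng1 (0.156), Avp (0.203) and Olfr1140 (0.222). Kirrel2, an adhesion molecule of OSN axons, went from 13787 ± 839 to 4127 ± 502, and S100a5, a calcium-binding protein of OSNs, from 6750 ± 123 to 2013 ± 152. Kcng1, a potassium channel subunit, went from 1107 ± 70.8 to 343 ± 21.5. In the PEA controls Kcng1 was at 15.2 and Avp at 0.699, low like Rasgrp4, whereas Kirrel2 was at 681 and S100a5 at 1686. Olfr1140 was at 55.2 there and at 67.5 in the Kir2.1 controls. The PEA values come from another library type and were normalized separately. The genes most like Spred1 were Slc35d3 (0.118), Slc18a1 (0.135), 2010001K21Rik (0.141), Igfbp6 (0.143) and Gm9358 (0.144). Of these Slc18a1, a vesicular monoamine transporter, went from 62.3 ± 5.49 to 114 ± 14.4 and Igfbp6, which binds insulin-like growth factors, from 72.8 ± 6.03 to 144 ± 25.9. The likeness is a description over 6 mice of 2 groups, so any gene with a difference of this size and little spread comes close.

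The rest of the pathway was read from 87 genes in 10 lists, of which 83 in the Kir2.1 and 81 in the PEA experiment had a mean of at least 10. None passed the adjusted threshold in either experiment by limma, where 0.353% of all genes did in the Kir2.1 mice. The study's own test called more genes in both experiments than limma did here. Before adjustment, a p under 0.05 was found for 5 genes with higher and 6 with lower values in Kir2.1 mice (11.1% of all genes had one), with a median log2 difference of 0.02 against 0.01 over all genes. In the PEA experiment, these were 5 and 9 genes (15% of all genes), with a median of -0.02 against -0.02. Groups that did not overlap were found for 6 of the 83 genes with lower and 6 with higher values in Kir2.1 mice (16.3% of all genes had them). Of the 81 genes in the PEA experiment, 8 with lower and 1 with higher values had such groups (9.32% of all genes).

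Upstream of the RasGRP proteins, diacylglycerol is made by phospholipases C and removed by diacylglycerol kinases. Of the 7 phospholipases none had an unadjusted p under 0.05 on silencing, the lowest being Plcg2 with a log2 difference of 0.24 and Plcb2 with 0.58. Of 9 kinases tested, 3 had such a p with lower values and 1 with higher values. Dgkg was at 175, 164 and 137 in controls and 76.7, 75.4 and 98.1 in Kir2.1 mice (log2 difference -0.92, SE 0.18, limma adjusted p = 0.121). Dgkk had 92.2, 123 and 117 against 42.3, 41.1 and 76.1 (log2 difference -1.09, SE 0.28, limma adjusted p = 0.214), and Dgkz had a log2 difference of 0.43 (limma adjusted p = 0.242). All 3 had groups that did not overlap, as 16.3% of all genes had. Among 14 other receptors of diacylglycerol tested, Prkcb, a protein kinase C, had a log2 difference of 0.60 (limma adjusted p = 0.435) and Unc13a, a priming factor of synaptic vesicles, -0.37.

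The GTPases and their other regulators gave smaller differences. Of the 6 Ras genes, Rras and Rras2 had the lowest p in the Kir2.1 mice, with log2 differences of 0.26 and 0.22. The 5 Rap genes lay between -0.10 (Rap2a) and 0.09 (Rap1b). Among exchange factors other than RasGRP, Rasgrf2 (16.9, 16.7 and 12.1 against 28.6, 22.0 and 21.5; log2 difference 0.63) and Rapgef3 (0.45) had groups that did not overlap and adjusted p of 0.538 and 0.502 by limma. Among proteins that turn Ras off, Rasa3 had a log2 difference of 0.37 and Rasal2 -0.17 (adjusted p = 0.409 and 0.624 by limma), and Nf1, the partner of Spred1, -0.09 (SE 0.08). The Sprouty genes, relatives of Spred, were at 0.05 (Spry1), 0.06 (Spry2) and 0.08 (Spry4).

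Downstream, the kinases and scaffolds from RAF to ERK lay between -0.35 and 0.02, with Ksr2 (-0.35) and Braf (-0.14) having the lowest p. Of 10 genes that respond to ERK, Etv4 was at 823, 842 and 799 in controls and 503, 595 and 550.3 in Kir2.1 mice (log2 difference -0.58, SE 0.09, limma adjusted p = 0.0693). Etv5, the related transcription factor, was at 2022 ± 86.5 and 1552 ± 92.5 (log2 difference -0.38, SE 0.08, limma adjusted p = 0.129). Both had groups that did not overlap, with Kir2.1 mice below, as 9.04% of all genes had. Egr1, an immediate early gene, had 449, 403 and 800.1 against 904, 1244 and 873, so that its groups did not overlap with Kir2.1 mice above (log2 difference 0.92, SE 0.27, limma adjusted p = 0.269). Fos, another such gene, had a log2 difference of 0.38 (limma adjusted p = 0.415) with overlapping groups. At an unadjusted limma p under 0.05, 2 of the 10 genes were higher and 2 lower in Kir2.1 mice. Dusp6, a phosphatase of ERK, was at 0.08 and overlapped.

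In the PEA experiment the genes with the lowest p were Nf1 and Unc13c. Nf1 was at 2154 ± 278 in controls and 1520 ± 84.2 in exposed mice (log2 difference -0.49, SE 0.11, limma adjusted p = 0.108), with groups that did not overlap. Unc13c was at -0.45 (limma adjusted p = 0.131), Rapgef6 at -0.29 (0.160), Rasal2 at -0.35 (0.195), Sos1 at -0.43 (0.266) and Plcb1 at -0.39 (0.333). Dgkg was at 56.8 and 38.5 there (log2 difference -0.55, limma adjusted p = 0.228). Higher values were seen for Hras (log2 difference 0.40, limma adjusted p = 0.203), Rras (0.45), Map2k1 (0.31), Map2k2 (0.55) and Dusp4 (0.33). Chn2 (-0.46), Plcb4 (-0.28), Rap2c (-0.19), Rap1b (-0.15), Dgkz (0.34), Dusp6 (0.25), Spry1 (0.16) and Spry2 (0.13) had unadjusted p above 0.05. Length went with these directions. The 9 lower genes had 7.32 to 15.8 kb of exon and the 5 higher ones 1.12 to 5.66 kb, and over all genes the median log2 difference was 0.01 in the shortest and -0.07 in the longest of 4 equal length bins. The part of length in the pathway values was not tested.

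**Figure D5:**
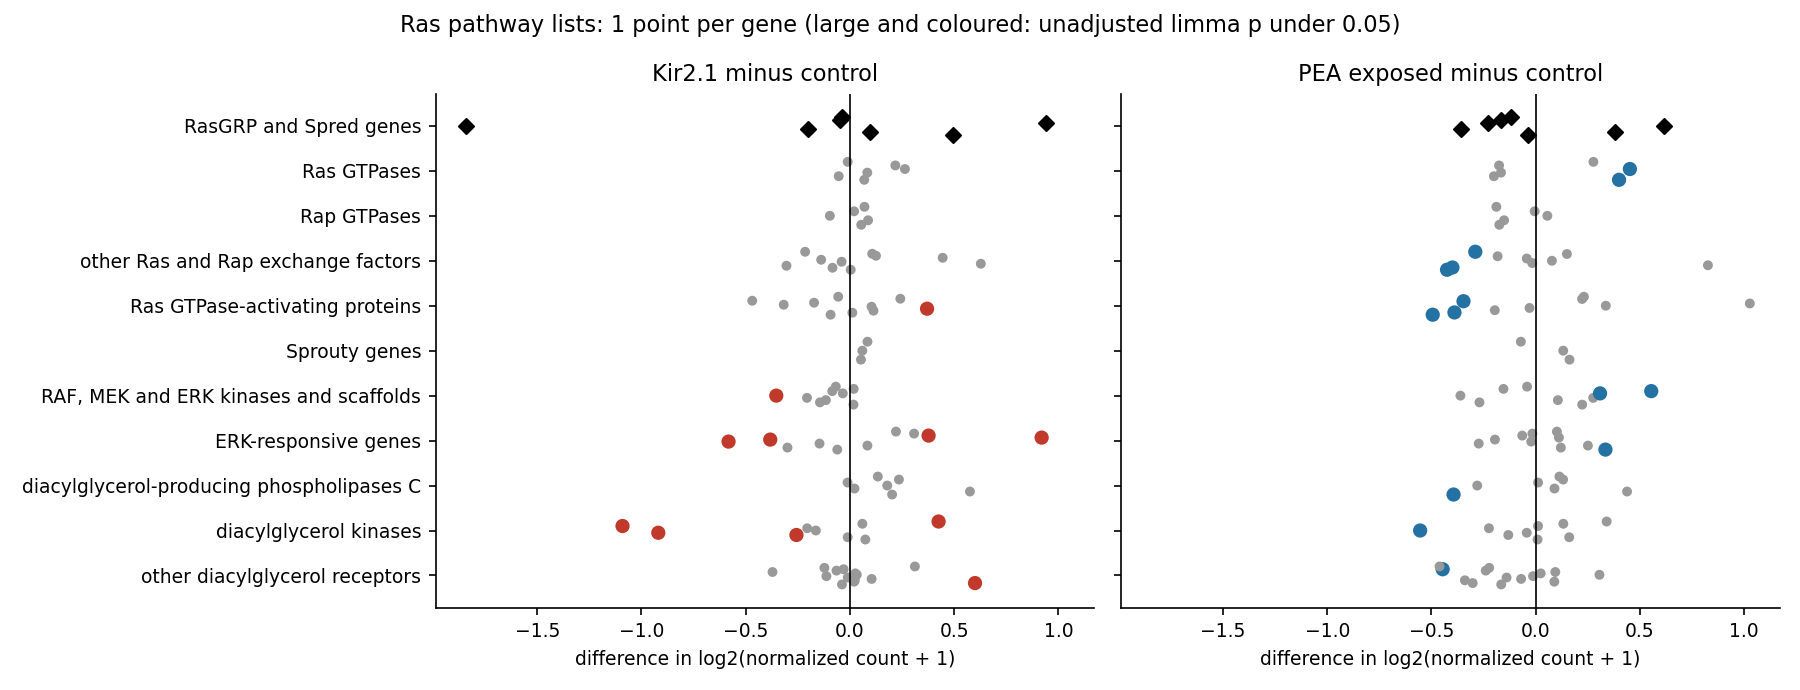
Log2 difference of each tested gene of the 10 pathway lists, with 1 point per gene on a shared axis for both experiments, large colored points for an unadjusted limma p under 0.05 and black diamonds for the RasGRP and Spred genes. Points of each list lie on both sides of 0 or close to it, and no gene of the lists passed the adjusted threshold of 0.05.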

How the data were processed

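The authors estimated transcript abundance with Salmon 1.3.0 (GRCm38, Ensembl release 100), brought it to genes with tximport and scaled it with DESeq2 1.30.0. What was deposited is thus a normalized signal for each gene and mouse, called normalized count here. Whole reads could not be recovered and the depth of the libraries is unknown, so precision was judged from the spread between mice. Sums over all genes were 33049111 to 34198478 per mouse for Kir2.1 and 11476120 to 12467331 for PEA. The methods describe a reverse-stranded setting in Salmon for every library, the unstranded ones included, and its effect on overlapping genes was not tested.

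Genes whose mean normalized count was 10 or more within an experiment were kept, which all 7 genes were in both. A pseudocount of 1 was added and log2 taken, a scale that understates changes of genes with low values. Each experiment was fitted alone over all kept genes with limma 3.58.1 (R 4.3.3; trended empirical Bayes, two-sided, Benjamini-Hochberg adjustment, threshold 0.05). Exact permutation tests used all splits of the mice. The scripts were tested on simulated data and used Python 3.11.15, pandas 2.3.3, numpy 2.4.6, scipy 1.17.1 and matplotlib 3.10.9. Positions, exon lengths and sequences came from GENCODE vM21, which held 95.9% of the symbols.

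The genes, lists and tests were chosen with earlier results of these data known. Named were all 7 genes, in each pathway list the genes past the adjusted threshold or else up to 2 with the lowest p, the 5 genes most like Rasgrp4 and Spred1, Kcnj2, Omp, and the first marker of a cell list, 1 of which is not reported here. Other pathway genes and the Fam98 genes were added after their values were seen. Replicate numbers were not taken as pairs, since no source ties them to a litter or day. Alternatives were pseudocounts of 0.5 and 5, no filter, a mean of 50, limma without a trend or robust, quantile normalization, median centring, covariates for vomeronasal receptors and Xist, subtraction of mature OSN markers, a replicate block and leaving out each mouse.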

Additional observations from a re-analysis of the deposited data

Results flagged for a closer look

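Rasgrp1 had 1 mouse that stood off from the rest of its group. The lowest PEA-exposed mouse (mouse 2) was at 88.1, against 109 to 111 in the other 3, a gap past the limit of Dixon's test at 95%. Without that mouse the log2 difference of Rasgrp1 was 0.042 in place of -0.04. Of 14 groups tested, 1 was singled out in this way, and chance gives about 1 in 20.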

How the results depend on the processing

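The number of genes called in the Kir2.1 mice, 70 in the fit reported, was 20 without a trend, 22 with a vomeronasal covariate, 44 with an Xist covariate and 23 to 44 with each mouse left out in turn. Subtracting the mean of mature OSN markers shifted the median of all genes to 0.43, with 91.8% of genes higher, and gave 10099 calls and 55 among the pathway lists, -1.42 for Rasgrp4 and 1.36 for Spred1. On that shifted scale Rasgrp1 was at 0.91, Rasgrp2 at 0.52, Rasgrp3 at 0.22 (-0.20 in the fit reported), Spred2 at 0.37 and Spred3 at 0.38. With each mouse left out, the Kir2.1 values of Rasgrp2 (-0.11 to 0.26), Rasgrp3 (-0.50 to 0.04), Spred2 (-0.08 to 0.00053) and Spred3 (-0.26 to 0.11) also fell on both sides of 0, and Rasgrp3 was at -0.51 with the vomeronasal covariate. The pathway lists gave 0 calls in every other alternative and between 0 and 0 with each mouse left out. With the replicate block, which treats same-numbered mice as pairs although their deviations correlated at -0.0585, -0.0106 and 0.155 in the Kir2.1 and at 0.135, -0.02, -0.0506 and 0.101 in the PEA experiment, the calls were 9 (8 of them among the 70) and 23 (20 of them among the 31 of the PEA fit). The block leaves the fitted differences as they were by its construction, with 1 mouse of each group to a number, and alters only their error. The PEA calls were 52 without a filter, 19 with the vomeronasal covariate and 19 to 43 with each mouse left out. No PEA value of a member passed the threshold in any alternative, but values near 0 changed sign. Rasgrp1 was at 0.029 with the vomeronasal covariate and ranged from -0.14 to 0.088 with each mouse left out (above 0 without control mouse 3, 0.088, or exposed mouse 2, 0.042). Rasgrp3 ranged from -0.58 to 0.11 (0.11 without exposed mouse 2), Spred3 from -0.22 to 0.023 (0.023 without control mouse 2), Rasgrp2 from 0.06 to 0.59, Rasgrp4 from 0.44 to 0.93, Spred1 from -0.31 to -0.14 and Spred2 from -0.30 to -0.07. The cause of these moves was not tested. With a mean of at least 50, Rasgrp3 had no value in the Kir2.1 experiment, and Rasgrp2, Rasgrp3, Rasgrp4 and Spred3 had none in the PEA experiment.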
